A study of Homo sapiens with 33 samples.

Results

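The genes described here encode the CDK inhibitors of human cells. They are the INK4 family (CDKN2A, CDKN2B, CDKN2C and CDKN2D), the antisense RNA of the INK4 locus (CDKN2B-AS1) and the CIP/KIP family (CDKN1A, CDKN1B and CDKN1C). They were taken by name, with earlier results of these data known, as 8 of the 35805 genes in the RNA-seq table, and their transcripts accounted for 45 of the 153958 start-site windows in the ChIP-seq table. RNA-seq and ChIP-seq were performed on H9, an established human ESC line, after sorting for SSEA4, a surface marker of undifferentiated ESCs. The cells differed in EZH2, the catalytic subunit of Polycomb repressive complex PRC2. EZH2+/+ ESCs had intact alleles, and EZH2-/+ ESCs carried a CRISPR/Cas9 mutation on 1 allele. EZH2-/- ESCs were made by targeting an EZH2-/+ line again after it had received a DOX-inducible EZH2 transgene, and were grown without DOX. EZH2-/- +EZH2 ESCs were EZH2-/- ESCs in which DOX induced that transgene. All ESCs grew on mouse feeder cells and the edited lines were clonal, so that genotype and clone, and induced EZH2 and DOX, cannot be told apart.

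CDK inhibitors are proteins that slow or stop the cell cycle. INK4 proteins bind CDK4 and CDK6, the kinases that pair with D-type cyclins and phosphorylate the retinoblastoma protein, whereas CIP/KIP proteins bind a wider range of cyclin and CDK complexes, including those of CDK2. PRC2 deposits H3K27me3, a repressive histone mark, and the INK4 locus is a classical Polycomb target whose transcripts are low in pluripotent cells and rise in senescent ones.

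Each genotype had 3 RNA-seq libraries of 25019064 to 56845644 reads, and expression was measured as RPM, each gene's reads relative to all reads of that library. RPM is not divided by gene length, so a level is compared between libraries and not between genes. The EZH2 gene was at 68.6, 63.3 and 59.5 RPM in the EZH2+/+ libraries, 55.4, 52.3 and 45.7 RPM for EZH2-/+, 11.5, 8.65 and 9.68 RPM for EZH2-/- and 271, 385 and 256 RPM for EZH2-/- +EZH2, so the libraries followed their labels. Its log2 fold change was -2.68 (SE 0.17, limma adjusted p = 5.1e-06) in EZH2-/- and 2.23 (SE 0.17, limma adjusted p = 3.8e-05) in EZH2-/- +EZH2, each relative to EZH2+/+. POU5F1, the pluripotency factor OCT4, was at 680 ± 97.2 RPM for EZH2+/+ and 1294 ± 208 RPM for EZH2-/- ESCs (SD, n = 3 each). Of 6 pluripotency markers 3 were called higher and 1 lower in EZH2-/- relative to EZH2+/+ ESCs by limma, with log2 fold changes of 2.12 for TDGF1, 0.92 for POU5F1, 1.98 for NANOG and -1.05 for SOX2 (adjusted p = 4.1e-05, 0.001, 0.0021 and 0.0026), and their summed level was 2056 to 2661 RPM in the EZH2+/+ and 3101 to 3495 RPM in the EZH2-/- libraries. TDGF1, POU5F1 and NANOG were also called higher in EZH2-/- +EZH2 than in EZH2+/+ ESCs. Their changes there were 1.82, 0.90 and 1.55 (limma adjusted p = 4.3e-04, 0.0041 and 0.022). In EZH2-/+ TDGF1 was called higher by 1.32 (limma adjusted p = 0.01). Relative to EZH2-/- +EZH2, 0 of the 6 were called in EZH2-/- ESCs. The 3 libraries of a genotype are called biological replicates of a line, with no separate derivations named, and a p value measures the spread between them, which may be technical. In bulk libraries a change in the number of cells that express a gene and a change of RNA per cell cannot be told apart. Fold changes are given on the log2(RPM + 0.1) scale, which understates the change of low genes, and were tested with limma over the 20608 genes whose mean reached 0.1 RPM. All 8 CDK inhibitor genes met that minimum, but CDKN2B-AS1 and CDKN2C did so only through their EZH2-/- libraries.

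Of the 8 genes, 5 were called higher and 1 lower in EZH2-/- than in EZH2+/+ ESCs at an adjusted p under 0.05. Of those 5, CDKN2B-AS1 and CDKN2C met the minimum only through the group where they were higher, so their calls, and that of CDKN2C relative to EZH2-/- +EZH2, lend no support to a share of the 8. The background was high, with 31.4% of all genes tested called in that comparison (12.6% higher and 18.8% lower). In EZH2-/- relative to EZH2-/- +EZH2 ESCs, 3 genes were called higher and 0 lower, where 3.15% of all genes were called (2.63% higher and 0.524% lower). In EZH2-/- +EZH2 relative to EZH2+/+ ESCs, 1 gene was called higher and 2 lower, against 10.3% of all genes (3.40% higher and 6.90% lower). No CDK inhibitor gene was called in EZH2-/+ relative to EZH2+/+ ESCs by limma, where 1.15% of all genes were called (0.180% higher and 0.966% lower), although 3 had an unadjusted p under 0.05, and limma voom on the recovered reads also called 0. The fit blocked on library number, which paired the libraries, called 4 genes higher in EZH2-/- relative to EZH2-/- +EZH2, 1 lower in EZH2-/+ and 3 lower in EZH2-/- +EZH2 relative to EZH2+/+ ESCs. These comparisons share libraries and are not independent of each other. Rescaling each library by the median ratio over genes moved the median log2 fold change of all genes in EZH2-/- relative to EZH2+/+ ESCs from -0.13 to -0.02, and turned 2593 higher and 3870 lower genes into 3288 and 2919. Of the 8 genes, it left 5 higher and 0 lower there, and 1 higher and 1 lower in EZH2-/- +EZH2 relative to EZH2+/+ ESCs. The same rescaling turned 37 and 199 genes into 53 and 138 in EZH2-/+, and 701 and 1422 into 953 and 910 in EZH2-/- +EZH2, each relative to EZH2+/+ ESCs.

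The median log2 fold change of the 8 genes in EZH2-/- ESCs was 1.50 relative to EZH2+/+ and 1.37 relative to EZH2-/- +EZH2. Over all genes tested it was -0.13 and 0.02. Both medians of the 8 include CDKN2B-AS1 and CDKN2C, which met the minimum only through their EZH2-/- libraries. They therefore lend no support to a shift of the 8 as a set. Setting genes without a read in the second group to their lower bound could not move either median, as those genes already lay above it. The median of the 8 genes was 0.02 in EZH2-/- +EZH2 and -0.28 in EZH2-/+ relative to EZH2+/+ ESCs, beside -0.15 and -0.09 over all genes. The genes behind these medians fell into a group led by the INK4 locus, with CDKN2C and CDKN1A, and a group of CDKN2D, CDKN1B and CDKN1C that was not called higher.

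**Figure D1:**
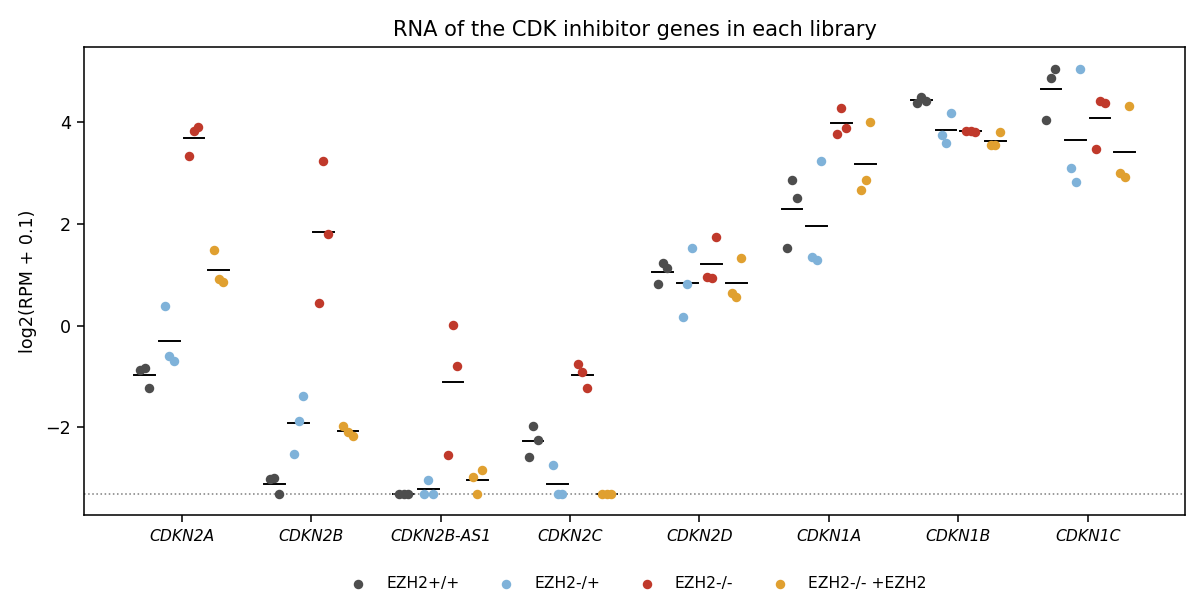
RNA-seq level of each CDK inhibitor gene as log2(RPM + 0.1) on the y axis, with 1 point per library (3 per genotype, in the order of their library numbers), a bar at the mean and a dotted line at 0 RPM. CDKN2A, CDKN2B, CDKN2B-AS1 and CDKN2C had all 3 EZH2-/- libraries above every library of the other genotypes, whereas CDKN2D and CDKN1C overlapped throughout.

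CDKN2A and CDKN2B lie on chromosome 9 and are read from the minus strand, CDKN2A from 21967753 to 21995301 in the deposited GRCh38 table. CDKN2A encodes p16INK4A from an internal start and p14ARF, an activator of the p53 pathway that is unrelated in sequence to the INK4 proteins, from a start further upstream. CDKN2B encodes p15INK4B, and CDKN2B-AS1, known as ANRIL, runs in the opposite direction from a start beside that of p14ARF. In the GENCODE annotation the exons of CDKN2A and CDKN2B-AS1 share 593 bases on opposite strands, those of CDKN2B and CDKN2B-AS1 share none, and reads were counted without regard to strand. The CDKN2A row of the RNA table therefore pools p16INK4A, p14ARF and any antisense read over the shared bases, and reads on the CDKN2B-AS1 row from those bases can likewise come from CDKN2A.

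The 250 bases before the start sites that the results turn on are given here because Polycomb targets in mammals are typically rich in the dinucleotide CG, which is in capitals. It reads the same on both strands and cannot overlap itself. The stretch before the p16INK4A start (chr9:21975099-21975348, minus strand, hg38) lay in an intron of the p14ARF transcripts. That start, 21975098, is the one of the deposited window. The nearest CDKN2A transcripts in GENCODE start further downstream, between 21974827 and 21974866. The stretches before the p14ARF start (chr9:21995325-21995574, minus strand) and the CDKN2B start (chr9:22009306-22009555, minus strand) lay within CDKN2B-AS1, in introns apart from 24 bases of an unnamed lncRNA exon in the former. The stretch before the upstream start of CDKN2C (chr1:50960495-50960744, plus strand) touched no exon and that before CDKN1B (chr12:12717118-12717367, plus strand) lay in an intron of longer CDKN1B transcripts. The last 4 were taken from RefSeq (GRCh38.p14), where 7 of the 8 genes had an entry, all identical to hg38.
p16INK4A: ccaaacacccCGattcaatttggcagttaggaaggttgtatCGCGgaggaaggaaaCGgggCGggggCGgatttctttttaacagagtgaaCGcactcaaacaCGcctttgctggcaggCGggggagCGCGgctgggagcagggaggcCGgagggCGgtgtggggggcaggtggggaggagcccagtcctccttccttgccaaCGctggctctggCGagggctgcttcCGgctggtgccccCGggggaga
p14ARF: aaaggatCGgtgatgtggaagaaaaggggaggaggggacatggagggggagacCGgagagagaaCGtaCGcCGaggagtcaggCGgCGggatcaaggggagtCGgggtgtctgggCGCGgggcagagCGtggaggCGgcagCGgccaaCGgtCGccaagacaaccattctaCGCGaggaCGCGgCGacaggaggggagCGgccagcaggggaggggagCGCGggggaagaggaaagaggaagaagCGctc
CDKN2B: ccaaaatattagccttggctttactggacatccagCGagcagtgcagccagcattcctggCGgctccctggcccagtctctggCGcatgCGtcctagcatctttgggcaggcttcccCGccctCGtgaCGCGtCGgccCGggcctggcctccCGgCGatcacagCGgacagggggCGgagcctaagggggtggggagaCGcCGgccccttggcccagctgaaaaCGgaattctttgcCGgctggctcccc
CDKN2C upstream start: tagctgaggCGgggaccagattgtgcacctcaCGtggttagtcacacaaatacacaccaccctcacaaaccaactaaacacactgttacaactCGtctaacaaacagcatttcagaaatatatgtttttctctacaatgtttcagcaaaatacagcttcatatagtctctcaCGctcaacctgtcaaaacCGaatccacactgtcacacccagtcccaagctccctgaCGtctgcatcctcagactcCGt
CDKN1B: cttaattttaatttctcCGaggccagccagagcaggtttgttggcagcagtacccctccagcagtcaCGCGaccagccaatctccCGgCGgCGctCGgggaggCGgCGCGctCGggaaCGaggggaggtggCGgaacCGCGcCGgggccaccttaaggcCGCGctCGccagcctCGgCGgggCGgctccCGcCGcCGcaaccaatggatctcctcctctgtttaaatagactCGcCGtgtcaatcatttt

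The CG count was 17 before the p16INK4A start of the deposited window, which lies upstream of the GENCODE starts. It was 24 before the p14ARF start and 18 before CDKN2B, beside a median of 11 over the 35116 RefSeq promoters of this length. Those counts were reached by 39.0%, 23.7% and 36.8% of all promoters, so the locus was above the median without being extreme. CDKN2C had 7 CG before its upstream start and 35 before its internal start, a count that 5.80% of promoters reached. CDKN1B and CDKN1A each had 27, CDKN2D 33 and CDKN2B-AS1 31, which 17.7%, 8.15% and 10.8% of promoters reached.

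CDKN2A RNA was lowest in EZH2+/+ ESCs, at 0.444, 0.456 and 0.328 RPM in the 3 libraries (20, 18 and 15 reads), and it was at 1.20, 0.562 and 0.516 RPM for EZH2-/+. In EZH2-/- ESCs it reached 10.0, 14.1 and 15.0 RPM, and with induced EZH2 it was at 2.70, 1.80 and 1.72 RPM. The order EZH2+/+, EZH2-/+, EZH2-/- +EZH2 and EZH2-/- held without overlap between neighbours, so the level with induced EZH2 was below that of EZH2-/- and above that of EZH2+/+ and EZH2-/+. The log2 fold change in EZH2-/- was 4.68 (SE 0.32, limma adjusted p = 5.1e-06) relative to EZH2+/+ and 2.60 (SE 0.32, limma adjusted p = 0.0018) relative to EZH2-/- +EZH2. EZH2-/- +EZH2 differed from EZH2+/+ by 2.07 (SE 0.32, limma adjusted p = 0.0023), whereas EZH2-/+ differed by 0.68 (SE 0.32, limma adjusted p = 0.48), which did not pass the test. Over the pooled reads the ratio of EZH2-/- to EZH2+/+ was 31.2-fold (95% interval 23.8 to 41.8, exact binomial, counting error only).

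CDKN2B was close to silent in EZH2+/+ ESCs, with 1, 1 and 0 reads in the 3 libraries, or 0.0222, 0.0254 and 0 RPM. It was at 0.0735, 0.173 and 0.285 RPM for EZH2-/+, 1.27, 9.37 and 3.41 RPM for EZH2-/- and 0.154, 0.134 and 0.120 RPM for EZH2-/- +EZH2 ESCs. Every EZH2-/- library was above every other library, but the 3 were spread widely, with library 2 highest and library 1 lowest. The log2 fold change in EZH2-/- was 4.95 (SE 0.55, limma adjusted p = 8.3e-05) relative to EZH2+/+ and 3.92 (SE 0.55, limma adjusted p = 0.0034) relative to EZH2-/- +EZH2. With limma voom on the recovered reads the latter missed the threshold (adjusted p = 0.073). With only 2 reads over all EZH2+/+ libraries, the pooled ratio of EZH2-/- to EZH2+/+ was 311-fold, with a 95% counting interval from 85.7 to 2570. Without EZH2-/- library 2, which held 499 of the 686 EZH2-/- reads, it was 134-fold (36.7 to 1119). CDKN2B in EZH2-/- +EZH2 relative to EZH2+/+ differed by 1.03 (SE 0.55, limma adjusted p = 0.26), and in EZH2-/+ by 1.19 (SE 0.55, limma adjusted p = 0.47). Neither passed, although all libraries of each group were above those of EZH2+/+.

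CDKN2B-AS1, the antisense RNA that is reported to bind Polycomb proteins, had no read in any EZH2+/+ library. EZH2-/+ libraries held 0, 1 and 0 reads, EZH2-/- libraries 4, 48 and 16 reads and EZH2-/- +EZH2 libraries 1, 0 and 1 reads. EZH2-/- libraries were thus at 0.0704, 0.901 and 0.475 RPM, in the same order across libraries as CDKN2B. How many of these reads fell in the 593 exon bases shared with CDKN2A, which was itself higher there, cannot be told from the table. Against a floor of 3 reads over the group, the pooled level was at least 20.5-fold higher in EZH2-/- than in EZH2+/+ ESCs, and at least 9.59-fold higher without EZH2-/- library 2, which held 48 of the 68 reads. The fitted log2 fold change was 2.21 (SE 0.51, limma adjusted p = 0.0061), and with no minimum on the level the limma adjusted p was 0.0057. Relative to EZH2-/- +EZH2 it was 1.93 (SE 0.51, limma adjusted p = 0.059), which did not pass, whereas in the fit blocked on library number the limma adjusted p was 0.032 and with no minimum it was 0.049. It also passed without EZH2-/- library 1, with a log2 fold change of 2.65 (limma adjusted p = 0.0018). The pooled ratio in that comparison was 23.9-fold (95% counting interval 6.38 to 202), and 11.2-fold (2.72 to 98.7) without EZH2-/- library 2.

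CDKN2C, which encodes p18INK4C and lies on chromosome 1, was low in every genotype, with its highest level in EZH2-/- and no read where EZH2 was induced. It was at 0.0666, 0.152 and 0.109 RPM for EZH2+/+ libraries and 0.493, 0.432 and 0.327 RPM for EZH2-/- libraries. EZH2-/+ libraries held 2, 0 and 0 reads, and no EZH2-/- +EZH2 library held a read. The EZH2-/- libraries were above all others, and those with induced EZH2 were below all EZH2+/+ libraries. CDKN2C in EZH2-/- relative to EZH2+/+ ESCs changed by 1.31 (SE 0.30, limma adjusted p = 0.0063). With no minimum on the level, by which CDKN2C entered through its EZH2-/- libraries, the limma adjusted p was 0.0015, and 2.4e-04 relative to EZH2-/- +EZH2. Relative to EZH2-/- +EZH2 the pooled level was at least 14.6-fold higher, with a fitted log2 fold change of 2.36 (SE 0.30, limma adjusted p = 0.0024). The change in EZH2-/- +EZH2 relative to EZH2+/+ ESCs was -1.05 (SE 0.30, limma adjusted p = 0.045), and the call was lost in 9 of the 12 fits that left out 1 library, with limma adjusted p up to 0.17. In the GENCODE annotation 617 exon bases of CDKN2C are shared with a lncRNA on the opposite strand, so its few reads cannot be assigned to strand.

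CDKN2D, which encodes p19INK4D, was the INK4 gene that was called in no comparison. It was at 1.67, 2.26 and 2.10 RPM for EZH2+/+, 1.03, 1.66 and 2.79 RPM for EZH2-/+, 1.85, 1.82 and 3.27 RPM for EZH2-/- and 1.47, 1.37 and 2.40 RPM for EZH2-/- +EZH2 libraries. All 4 genotypes overlapped, and library 3 was highest in all but EZH2+/+. The log2 fold change in EZH2-/- was 0.15 (SE 0.36, limma adjusted p = 0.77) relative to EZH2+/+, and it turned to -0.11 without EZH2-/- library 3. Relative to EZH2-/- +EZH2 it was 0.38 (SE 0.36, limma adjusted p = 0.64).

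Among the CIP/KIP genes CDKN1A, which encodes p21, the p53-induced inhibitor of CDK2 complexes, was the only gene called higher in EZH2-/- than in EZH2+/+ ESCs. CDKN1A was at 2.80, 7.15 and 5.64 RPM for EZH2+/+, 2.45, 2.36 and 9.34 RPM for EZH2-/+, 13.5, 19.4 and 14.8 RPM for EZH2-/- and 6.27, 7.21 and 15.99 RPM for EZH2-/- +EZH2 libraries. EZH2-/- libraries were above all EZH2+/+ and EZH2-/+ libraries but overlapped EZH2-/- +EZH2, whose library 3 exceeded 2 of them. The log2 fold change was 1.68 (SE 0.51, limma adjusted p = 0.025) relative to EZH2+/+ and 0.80 (SE 0.51, limma adjusted p = 0.47) relative to EZH2-/- +EZH2. The first of these lost its call when EZH2+/+ library 1, EZH2-/- library 2 or EZH2-/- library 3 was left out, with limma adjusted p of 0.0997, 0.089 and 0.056. CDKN1A shares 146 exon bases with the lncRNA DINOL on the opposite strand.

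CDKN1B, which encodes p27, moved the other way. It was at 20.8, 22.6 and 21.5 RPM for EZH2+/+ libraries, 13.3, 11.99 and 18.2 RPM for EZH2-/+, 14.2, 14.2 and 14.0 RPM for EZH2-/- and 11.7, 11.6 and 13.9 RPM for EZH2-/- +EZH2. Every EZH2+/+ library was above every library of the edited lines. CDKN1B in EZH2-/- relative to EZH2+/+ ESCs changed by -0.61 (SE 0.16, limma adjusted p = 0.015), and it was also lower where EZH2 was induced, with -0.80 (SE 0.16, limma adjusted p = 0.0095) in EZH2-/- +EZH2. In EZH2-/+ the difference was -0.59 (SE 0.16, limma adjusted p = 0.14), and in the fit blocked on library number the limma adjusted p was 0.045. After rescaling by the median ratio the difference in EZH2-/- was -0.50 and missed the threshold (limma adjusted p = 0.055), as it did without EZH2+/+ library 2 (0.054). Relative to EZH2-/- +EZH2, CDKN1B in EZH2-/- ESCs differed by 0.19 (SE 0.16, limma adjusted p = 0.6), although all 3 libraries were above those with induced EZH2.

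CDKN1C, the imprinted gene for p57, varied widely between libraries of a genotype and was called in no comparison. It was at 16.5, 29.4 and 33.3 RPM for EZH2+/+, 8.55, 6.96 and 33.3 RPM for EZH2-/+, 11.0, 21.5 and 20.7 RPM for EZH2-/- and 7.95, 7.53 and 19.8 RPM for EZH2-/- +EZH2 libraries. Library 3 was the highest or next to the highest in every genotype, and the genotypes overlapped. CDKN1C in EZH2-/- differed by -0.57 (SE 0.54, limma adjusted p = 0.45) relative to EZH2+/+ and by 0.68 (SE 0.54, limma adjusted p = 0.57) relative to EZH2-/- +EZH2. In EZH2-/- +EZH2 relative to EZH2+/+ it was -1.25 (SE 0.54, limma adjusted p = 0.17), and in the fit blocked on library number the limma adjusted p was 0.023.

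**Figure D2:**
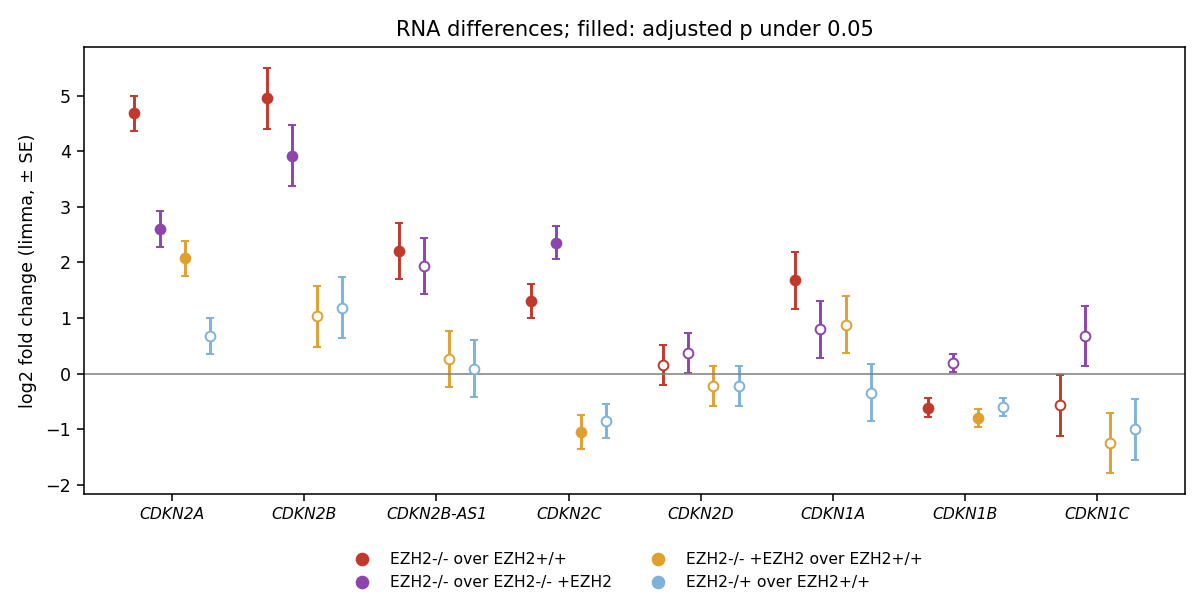
Log2 fold change from limma on the y axis for each CDK inhibitor gene in 4 comparisons, with bars for 1 SE and filled points for an adjusted p under 0.05. CDKN2A and CDKN2B rose by 4.68 and 4.95 in EZH2-/- relative to EZH2+/+ ESCs, whereas filled points lay below 0 for CDKN1B (the decrease in EZH2-/- was lost after rescaling by the median ratio) and for CDKN2C with induced EZH2.

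Whether libraries of 2 groups overlapped gave a count that needs no model. In EZH2-/- against EZH2+/+ ESCs 5 genes were higher without overlap and 1 was lower, where 49.8% of all genes did not overlap. Against EZH2-/- +EZH2 the EZH2-/- libraries were higher without overlap for 5 genes, including CDKN1B and CDKN2B-AS1, beside 23.2% of all genes in either direction. CDKN2B-AS1 and CDKN2C are among the 5 in both comparisons. They met the minimum only through their EZH2-/- libraries, so they lend no support to either count. In EZH2-/- +EZH2 relative to EZH2+/+, 2 genes were higher (CDKN2A and CDKN2B) and 2 lower (CDKN1B and CDKN2C), beside 32.1% of all genes, and in EZH2-/+ it was the same 2 higher and the same 2 lower, beside 15.1%. With 3 libraries against 3, an exact two-sided permutation test cannot give a p below 0.1.

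ChIP-seq was read as RPM of non-duplicated reads in 5 kb windows around annotated start sites, 1 value per mark and genotype, so these values have no replicate error and no test. The methods describe averages of 3 biological replicates, whereas the lowest values of each histone column held 5 to 6 of 6 steps that an average of 2 libraries on the log2 scale would give and 0 of 3 steps particular to an average of 3. How many libraries each value rests on is therefore unsettled, and the read numbers given for a window are approximate. For each gene the window with the most H3K27me3 in EZH2+/+ ESCs was taken, which favours a high EZH2+/+ value. For CDKN2A and CDKN2B this window lay at an internal start, downstream of the p16INK4A start and of the main CDKN2B start. A change of at least 1 on the log2 scale was counted and set beside the share of 35683 gene names that reached it. No spike-in was stated, so RPM shows the share of a library that falls in a window, not an absolute amount.

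In EZH2+/+ ESCs the INK4 genes apart from CDKN2D, and CDKN1A, were rich in H3K27me3. CDKN2A had 38.0 RPM (percentile 99.1 of all gene names), CDKN2C 22.5 RPM, CDKN2B 22.1 RPM, CDKN2B-AS1 21.9 RPM and CDKN1A 19.4 RPM. CDKN1C had 10.2 RPM, CDKN2D 6.64 RPM and CDKN1B 5.16 RPM (percentile 82.0), the lowest of the 8. EZH2 itself, in 1 EZH2+/+ library, had 3.55 RPM at CDKN2A (percentile 98.4), 2.60 RPM at CDKN2C, 2.41 RPM at CDKN2B-AS1 and 1.57 RPM at CDKN2B. The CIP/KIP genes had 1.55 RPM at CDKN1A, 1.26 RPM at CDKN1C and 0.547 RPM at CDKN1B (percentile 73.4), with 0.740 RPM at CDKN2D. CDKN2A thus had the most and CDKN1B the least of both H3K27me3 and EZH2.

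All 8 genes had less H3K27me3 in EZH2-/- than in EZH2+/+ ESCs. It was at 1.66 RPM at CDKN2A, 0.501 RPM at CDKN2B, 0.332 RPM at CDKN2B-AS1 and 0.865 RPM at CDKN2C. The CIP/KIP genes and CDKN2D came to between 0.574 RPM (CDKN1C) and 1.10 RPM (CDKN1A). The log2 change from EZH2+/+ was between -5.68 (CDKN2B-AS1) and -2.33 (CDKN1B), with a median of -4.23 beside -0.94 over all gene names, and 8 of 8 were lower by at least 1, where 48.0% of all names were. Genes without a call in RNA were among them, with a change of -2.76 at CDKN2D and -3.93 at CDKN1C. The 8 genes stood at percentiles 82.0 to 99.1 of all names in EZH2+/+ ESCs, and names with little of the mark could not fall as far. The contrast with all names therefore does not show a stronger loss at these genes.

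Induced EZH2 was accompanied by H3K27me3 close to the EZH2+/+ value at most of the 8 genes. The mark was at 31.8 RPM at CDKN2A, 16.4 RPM at CDKN2B, 21.1 RPM at CDKN2C and 11.7 RPM at CDKN1A. All 8 genes were lower by at least 1 in EZH2-/- than in EZH2-/- +EZH2 ESCs, where 37.3% of all names were. Relative to EZH2+/+ ESCs only CDKN2B-AS1 stayed lower by at least 1 (10.1 RPM, a log2 change of -1.12), where 5.60% of all names were. In EZH2-/+ ESCs only CDKN1B was higher by at least 1 (11.0 RPM, a log2 change of 1.07), where 0.653% of all names were, and the other 7 changed by between -0.20 and 0.67.

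**Figure D3:**
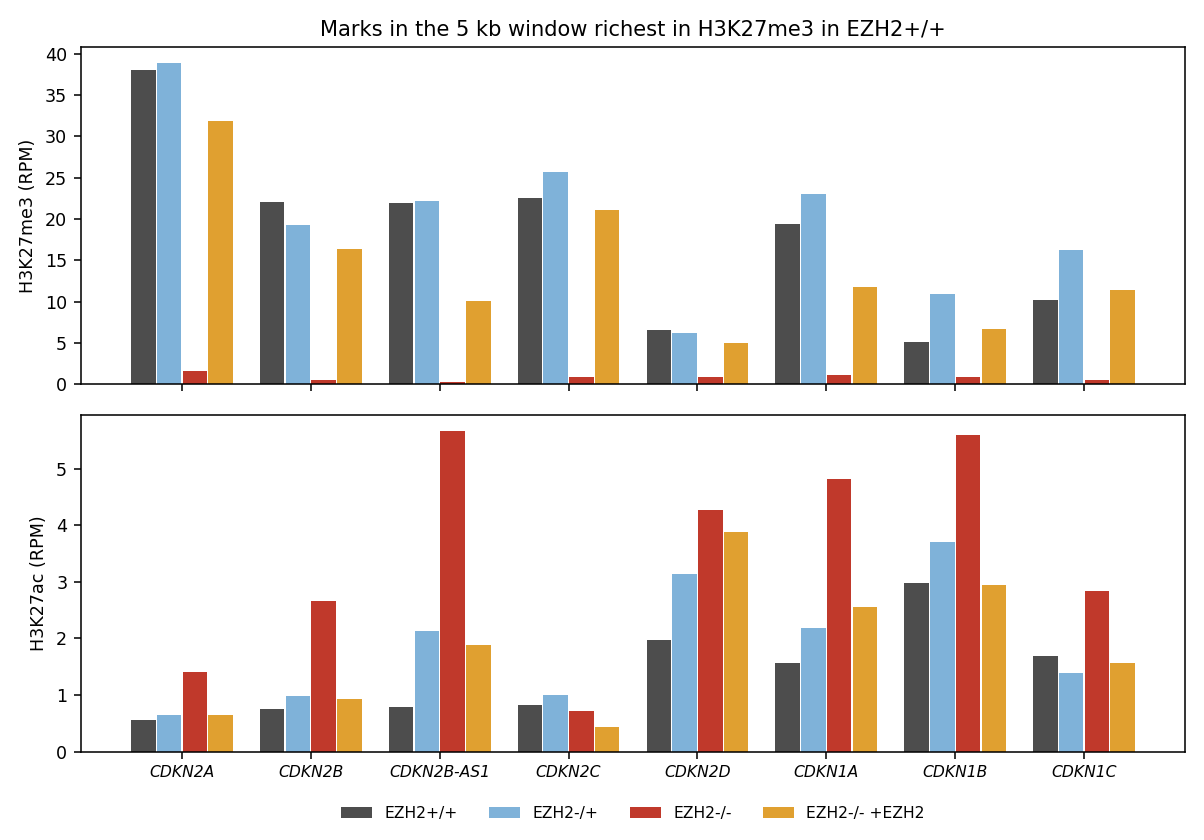
H3K27me3 (top) and H3K27ac (bottom) as RPM in the 5 kb window of each CDK inhibitor gene that had the most H3K27me3 in EZH2+/+ ESCs, with 1 bar per genotype and no error bars because each bar is 1 deposited value. All 8 genes had less H3K27me3 in EZH2-/- than in EZH2+/+ ESCs, going from 38.0 to 1.66 RPM at CDKN2A. H3K27ac differed most at CDKN2B-AS1, whose window also covers the p14ARF start of CDKN2A, going from 0.792 to 5.67 RPM.

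Within the INK4 locus the mark was high at the p16INK4A, p14ARF and CDKN2B starts and low beyond them. In EZH2+/+ ESCs H3K27me3 was at 26.0 RPM around the p16INK4A start, 21.9 RPM around the p14ARF start of CDKN2A and 11.0 RPM around the main CDKN2B start. The distal starts of CDKN2B-AS1 had 1.36 and 2.08 RPM, and the neighbouring gene MTAP had 3.35 RPM, so those windows had little of it. With induced EZH2 the p16INK4A start of CDKN2A was at 20.9 RPM and the p14ARF start, which CDKN2B-AS1 shares, at 10.1 RPM. The return of the mark therefore differed along the locus, less at the p14ARF and CDKN2B-AS1 starts than at p16INK4A, in these unreplicated values. CDKN2C showed a like contrast between its starts, with 1.25 RPM at the upstream start, the stretch with 7 CG, and 22.5 RPM at the internal start with 35.

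**Figure D4:**
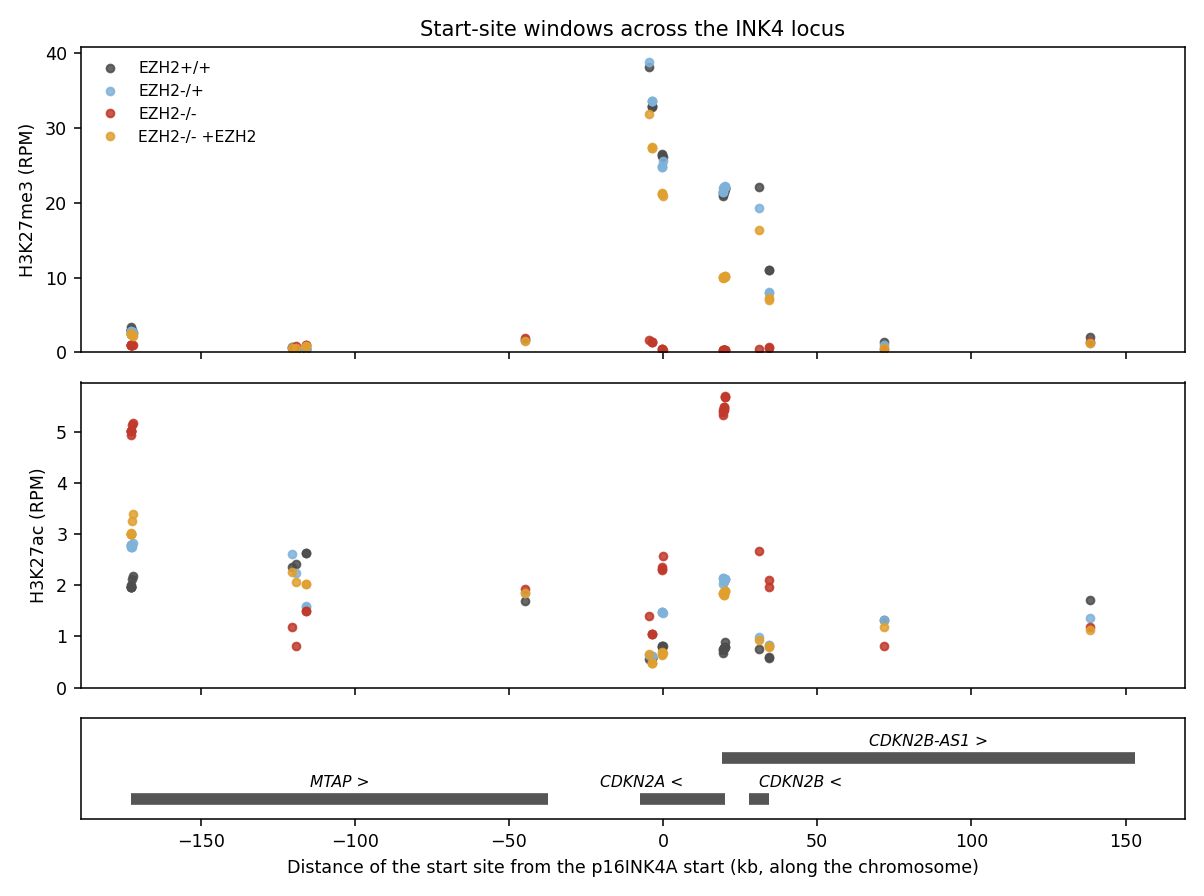
H3K27me3 (top) and H3K27ac (middle) as RPM in start-site windows against their distance in kb from the p16INK4A start, coloured by genotype, over a map of the GENCODE genes with arrows for strand. H3K27me3 in EZH2+/+ ESCs peaked over CDKN2A, at 38.0 RPM, and was 3.35 RPM at the MTAP start, while H3K27ac in EZH2-/- ESCs was 5.70 RPM at the p14ARF start of CDKN2A.

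H3K27ac, a mark of active promoters and enhancers, was higher by at least 1 at 5 of the 8 genes in EZH2-/- relative to EZH2+/+ ESCs, where 9.18% of all names were. At CDKN2B-AS1 it was 0.792 RPM for EZH2+/+, 2.12 RPM for EZH2-/+, 5.67 RPM for EZH2-/- and 1.88 RPM for EZH2-/- +EZH2 ESCs. In the chosen windows CDKN2B-AS1 was the only gene of the 8 higher by at least 1 than EZH2+/+ in EZH2-/+ ESCs, where 1.07% of all names were. The same held where EZH2 was induced, with 2.47% of all names. Its window also covers the p14ARF start of CDKN2A, whose chosen window lay elsewhere. Over all CDKN2A windows H3K27ac reached 0.886 RPM for EZH2+/+, 2.14 RPM for EZH2-/+, 5.70 RPM for EZH2-/- and 1.88 RPM for EZH2-/- +EZH2. The count is therefore not particular to the antisense gene. Between EZH2+/+ and EZH2-/- ESCs, in the chosen windows, CDKN2B went from 0.762 to 2.66 RPM and CDKN1A from 1.57 to 4.82 RPM. CDKN2A went from 0.554 to 1.41 RPM and CDKN2D from 1.98 to 4.26 RPM. The MTAP start, which had little H3K27me3, went from 2.01 to 4.93 RPM. CDKN1B and CDKN1C were higher by less (0.89 and 0.71 on the log2 scale), and CDKN2C, whose RNA was called higher, changed by -0.17. These values rest on few reads, about 7 in EZH2+/+ and 12 in EZH2-/- ESCs at CDKN2A, and the count was 3 with a pseudocount of 1 RPM or after centring on all windows and 2 at a fold of 3. Relative to EZH2-/- +EZH2 ESCs, H3K27ac in EZH2-/- was higher by at least 1 at CDKN2A, CDKN2B and CDKN2B-AS1, where 3.85% of all names were. CDKN2D, at 3.87 RPM with induced EZH2 and 3.14 RPM in EZH2-/+ ESCs, differed in that comparison by only 0.13 on the log2 scale.

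H3K4me3, the mark of CG-rich promoters, was present at the INK4 genes in EZH2+/+ ESCs despite their H3K27me3, with 5.96 RPM at CDKN2A, 13.0 RPM at CDKN2B-AS1 and 9.85 RPM at CDKN2C. Only CDKN2B was higher by at least 1 in EZH2-/- relative to EZH2+/+ ESCs, where 2.47% of all names were. This was at its internal start, from 3.20 to 9.17 RPM. The other CDKN2B windows rose less, from 4.69 and 4.74 RPM in EZH2+/+ to 7.25 RPM in EZH2-/- ESCs. At the internal start CDKN2B was also higher by at least 1 relative to EZH2+/+ in EZH2-/+ (10.6 RPM, with 5.19% of all names higher) and EZH2-/- +EZH2 (8.40 RPM, with 1.71%). The EZH2+/+ value there came from about 11 reads in the shallowest of the H3K4me3 columns. Relative to EZH2-/- +EZH2, H3K4me3 in EZH2-/- changed by between -0.37 (CDKN2A) and 0.23 (CDKN1B). H3K4me1, a mark of enhancers and promoter flanks, changed by no more than 0.82, at CDKN2A, in EZH2-/- relative to EZH2+/+ ESCs. Input chromatin changed by between -0.32 and 0.44 over the 8 genes in that comparison.

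The targets and partners of these inhibitors are set beside the 12.6% of all genes called higher and 18.8% called lower in EZH2-/- relative to EZH2+/+ ESCs. Of 9 CDKs and cyclins of G1 and S phase, 1 was called higher and 1 lower in EZH2-/- relative to EZH2+/+ ESCs by limma, a share no higher than that of all genes. CDK6, a target of INK4 proteins, changed by 0.92 (SE 0.19, adjusted p = 0.0034), and CDK2, a target of CIP/KIP proteins, by -0.58 (SE 0.14, adjusted p = 0.0079). CCND3, a D-type cyclin, differed by 0.54 (SE 0.19, adjusted p = 0.051) and CCNA2, a cyclin of S phase, by -0.24 (SE 0.13, adjusted p = 0.17) in the same limma fit, and neither passed. In the fit blocked on library number, and after rescaling by the median ratio, 2 were called higher and 1 lower. The list's median was 0.02, beside -0.13 over all genes.

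Of 8 pocket protein and E2F genes, which act downstream of the CDKs, 0 were called higher and 3 lower, beside 18.8% of all genes lower, with a median of -0.33. They were RBL2, a pocket protein, by -1.18 (SE 0.19, adjusted p = 8.4e-04), E2F2, an activating E2F, by -1.59 (SE 0.26, adjusted p = 8.8e-04), and E2F5, a repressive one, by -0.44 (SE 0.13, adjusted p = 0.024), all in the limma fit. RBL1 differed by -0.72 (SE 0.27, adjusted p = 0.06) without passing. After rescaling by the median ratio 2 of the 3 calls were left, and relative to EZH2-/- +EZH2 ESCs none of the 8 was called (1 lower in the fit blocked on library number).

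Of 10 genes of the p53 pathway, whose best-known transcriptional target among the inhibitors is CDKN1A, 2 were called higher and 0 lower in EZH2-/- relative to EZH2+/+ ESCs, beside 12.6% of all genes higher: BAX, which promotes apoptosis, by 0.69 (SE 0.14, adjusted p = 0.0035) and GADD45A, which responds to DNA damage, by 0.76 (SE 0.22, adjusted p = 0.02) in limma. ZMAT3 at 0.26 (SE 0.22, adjusted p = 0.4) and FAS at -0.29 (SE 0.29, adjusted p = 0.48) did not pass, and the median was 0.06. Around CDKN1C on chromosome 11, 2 of 6 imprinted or neighbouring genes were called higher and 1 lower: PHLDA2, a growth-restraining placental gene, by 2.99 (SE 0.36, adjusted p = 1.4e-04), CARS by 0.55 (SE 0.19, adjusted p = 0.045) and KCNQ1, a potassium channel gene, by -0.94 (SE 0.30, adjusted p = 0.03), whose call was lost after rescaling by the median ratio. CDKN1C itself was not called while its neighbour PHLDA2 was. Around the INK4 locus, DMRTA1 rose by 1.14 (SE 0.17, adjusted p = 5.1e-04), MTAP differed by 0.58 (SE 0.24, adjusted p = 0.081) and ELAVL2 by -0.28 (SE 0.52, adjusted p = 0.71), and the fourth neighbour listed, IFNE, was below the minimum. The DMRTA1 start had 2.41 RPM of H3K27me3 in EZH2+/+ ESCs, far below the values over CDKN2A. In the fit blocked on library number, 2 genes around the INK4 locus were called higher, and 3 higher and 2 lower around CDKN1C. With induced EZH2, BAX and DMRTA1 were also called higher than in EZH2+/+ ESCs, by 0.54 and 0.70 (limma adjusted p = 0.031 and 0.023). GADD45A differed there by 0.05 (limma adjusted p = 0.83). Relative to EZH2-/- +EZH2, BAX, DMRTA1 and GADD45A in EZH2-/- ESCs were not called (0.15, 0.44 and 0.71, limma adjusted p = 0.65, 0.21 and 0.11).

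Some markers of differentiated cells were also higher in EZH2-/- ESCs, beside 12.6% of all genes called higher and 18.8% lower relative to EZH2+/+. Of 6 endoderm markers 4 were called higher in EZH2-/- relative to EZH2+/+ ESCs, and their summed level was 22.5 to 49.0 RPM for EZH2+/+, 14.0 to 453 RPM for EZH2-/+, 162 to 465 RPM for EZH2-/- and 23.3 to 54.7 RPM for EZH2-/- +EZH2 libraries. Of 8 mesoderm and mesenchyme markers 5 were called higher and 1 lower, with sums of 223 to 313, 126 to 197, 133 to 437 and 123 to 158 RPM in the same order. Their sums overlapped between EZH2+/+ and EZH2-/- libraries, and the EZH2+/+ sums were mostly COL1A1 and COL1A2. COL1A2, the gene called lower, was at 159 to 198 RPM for EZH2+/+ and 62.0 to 125 RPM for EZH2-/- libraries. COL1A1 and MESP1 overlapped and were not called. The 5 genes called higher did not overlap between these genotypes. Among them, TWIST1 went from 0.155 to 0.304 RPM up to 5.61 to 8.34 RPM. HAND1 went from 0.153 to 0.761 RPM up to 2.69 to 35.9 RPM. The trophectoderm and amnion markers had 2 of 5 called higher (sums of 5.77 to 9.86 RPM for EZH2+/+, 5.37 to 11.5 RPM for EZH2-/- and 2.84 to 4.16 RPM for EZH2-/- +EZH2), and the neuroectoderm markers 1 of 4 higher and 2 lower (sums of 232 to 351, 362 to 403 and 246 to 364 RPM in those genotypes). The neuroectoderm sum was mostly NES, at 196 to 247 RPM for EZH2+/+ and 312 to 350 RPM for EZH2-/- libraries. NES was the gene called higher, by 0.65 (limma adjusted p = 0.021). SOX1 and PAX6 were lower by -5.89 and -2.57 (limma adjusted p = 1.2e-05 and 0.0023), and OTX2 was not called. Both were also lower with induced EZH2, by -4.72 and -3.61 relative to EZH2+/+ (limma adjusted p = 2.3e-04 and 0.0012). In EZH2-/+ SOX1 was lower by -3.50 (limma adjusted p = 0.0051). Neither was called in EZH2-/- relative to EZH2-/- +EZH2 ESCs. No marker of these lists was at 0 in all libraries of a genotype. EZH2-/- library 2 was the highest of the EZH2-/- libraries for the endoderm, mesoderm and trophectoderm sums and for CDKN2B, CDKN2B-AS1 and CDKN1A, but not for CDKN2A. The part of differentiated cells in these results was not tested. The CDKN2A and CDKN2B calls in EZH2-/- relative to both EZH2+/+ and EZH2-/- +EZH2 ESCs were made in each of the 12 fits that left out 1 library, EZH2-/- library 2 included. EZH2-/+ library 2 had an endoderm sum of 453 RPM, above 2 of the 3 EZH2-/- libraries, with CDKN2A at 0.562 RPM and CDKN2B at 0.173 RPM. Of that sum 358 RPM was CER1, but the other endoderm markers were also above every EZH2+/+ library there. GATA6 was at 18.7, GATA4 at 12.8, SOX17 at 19.2, FOXA2 at 20.5 and CXCR4 at 23.6 RPM. Their highest EZH2+/+ values were 3.42, 3.42, 7.19, 11.3 and 9.99 RPM. The mesoderm marker HAND1 was at 0.0216 RPM in this library, beside 2.69 RPM in the lowest EZH2-/- library. These values are of 1 library and were not tested.

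The genes whose levels followed those of the inhibitors most closely over the 12 libraries were named by Pearson's r among 15475 genes whose mean reached 1 RPM, as a description, since the libraries share genotype and depth. For CDKN2A they were CAPN13 (r = 0.989), RP4-755D9.1 (r = 0.984) and CALHM2 (r = 0.972). CAPN13, a calpain gene, had a mean of 0.405 RPM for EZH2+/+ and 7.82 RPM for EZH2-/- libraries. For CDKN2B they were ATP12A (r = 0.962), SLC7A7 (r = 0.961) and PLK2 (r = 0.961), the last a kinase gene with means of 3.81 and 24.1 RPM. For CDKN1A they were SAT1 (r = 0.973), NECAB1 (r = 0.941) and TFAP2C (r = 0.936), of which SAT1, the enzyme of polyamine acetylation, had means of 33.0 and 83.9 RPM. The genes alike to CDKN2A and CDKN2B were lower again in EZH2-/- +EZH2 ESCs, with means of 1.99 RPM for CAPN13 and 0.935 RPM for ATP12A, whereas SAT1 was at 53.1 RPM.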

How the data were processed

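RNA-seq (12 libraries, 3 per genotype) and native ChIP-seq (crosslinked for EZH2) tables were used as deposited. For RNA-seq, the authors trimmed reads with Trim Galore 0.4.0, mapped them to GRCh38 with TopHat2 2.0.12 and exported from SeqMonk log2 RPM per gene, counted without strand, genes without reads being given 0.9 of 1 read. ChIP-seq reads were trimmed likewise and mapped with Bowtie2 2.2.5, and the authors' log2 RPM values count non-duplicated reads within 5000 bp windows at start sites. The authors' methods name biological replicates for ChIP-seq, and its columns hold 1 value per mark and genotype.

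Values were returned to RPM, with those placeholders set to 0, and 100% of RNA values below 1000 reads were whole reads within 0.01. Genes whose mean reached 0.1 RPM were tested on log2(RPM + 0.1) with limma 3.58.1 in R 4.3.3 (trended empirical Bayes, all 12 libraries, Benjamini-Hochberg, 0.05), which was first tested on simulated data. Library sizes ranged from 25019064 to 56845644 reads. Read ratios carry 95% exact intervals, and those and the floor of 3 reads cover counting error only. Libraries with the same number in different genotypes deviated together from their genotype means in all 18 pairs (r from 0.107 to 0.560, median 0.316, against -0.237 for other pairs), so the number was used as a block in an alternative fit. The other alternatives changed the pseudocount, the minimum, the scaling, the libraries fitted and, for ChIP-seq, the window, pseudocount, centring and fold.

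The genes named were the 8 inhibitors, EZH2, up to 4 genes per list by the smallest p in EZH2-/- relative to EZH2+/+, and the 3 genes most like CDKN2A, CDKN2B and CDKN1A. POU5F1 was shown as a check on the cells. The members and lists were chosen with earlier results of these data known.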

Additional observations from a re-analysis of the deposited data

How the results depend on the processing

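With 3 libraries per genotype, leaving out 1 library gave 366 CDK inhibitor fold changes of the same direction and call, 13 that lost their call, 3 that gained one and 2 that reversed, and the other alternatives gave 265, 7, 7 and 1. Each reversal was of CDKN2D, never called: in EZH2-/- relative to EZH2+/+ ESCs it ranged from -0.11 (without EZH2-/- library 3) to 0.29 without 1 library and was -0.077 without the libraries numbered 3, and in EZH2-/+ it ranged from -0.57 to 0.11 (without EZH2-/+ library 1). The cause was not tested for any change given here except where fewer genes or libraries entered the fit. ChIP-seq allowed no test, and low H3K27ac counts limited that mark. Limma voom, leaving out the libraries numbered 3 and the read ratios without EZH2-/- library 2 were chosen after seeing the data. The edgeR and DESeq2 fits to recovered reads were not run.

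With the library number as a replicate block, the counts of genes in EZH2-/- relative to EZH2-/- +EZH2 ESCs went from 542 higher and 108 lower to 1276 and 661, those in EZH2-/+ relative to EZH2+/+ from 37 and 199 to 148 and 446, and those in EZH2-/- +EZH2 relative to EZH2+/+ from 701 and 1422 to 1290 and 3321. In EZH2-/+ the block called 1 inhibitor lower (CDKN1B). Apart from the calls of CDKN2B-AS1, CDKN1B and CDKN1C given in the report it changed no call of an inhibitor.

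In EZH2-/- relative to EZH2-/- +EZH2 ESCs, the genes higher and lower were 221 and 67 with a minimum of 1 RPM and 238 and 36 with limma voom. Higher genes were 241 without the libraries numbered 3, and lower genes 52 with the 6 libraries compared alone. In EZH2-/+ relative to EZH2+/+ ESCs, higher genes were 0 with the 6 libraries alone, 21 with voom and 360 without the libraries numbered 3, and lower genes were 131 with a minimum of 1 RPM, 10 with the 6 libraries and 874 without those numbered 3, when 2 inhibitors (CDKN1B and CDKN1C) were called lower. In EZH2-/- +EZH2 relative to EZH2+/+ ESCs, 1642 genes were higher and 3211 lower without those numbered 3, and 910 were lower after rescaling by the median ratio. There 1 inhibitor, CDKN1B, was called lower with a pseudocount of 0.25 or 1 RPM, a minimum of 1 RPM, median-ratio rescaling or the 6 libraries alone. In EZH2-/- relative to EZH2+/+ ESCs, 3 inhibitors were tested and higher with a minimum of 1 RPM, and 0 were lower after rescaling. H3K27ac was higher at 3 inhibitors with a pseudocount of 1 RPM, 3 after centring and 2 at a fold of 3, and H3K27me3 was lower at 7 to 8 under every alternative run.

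Leaving out 1 library gave 123 to 862 higher and 14 to 227 lower genes in EZH2-/- relative to EZH2-/- +EZH2 (lowest without EZH2-/- library 2, highest without EZH2-/+ library 3), 1796 to 3147 and 2343 to 4560 relative to EZH2+/+, 7 to 151 and 57 to 451 in EZH2-/+ relative to EZH2+/+, and 328 to 973 and 551 to 2028 in EZH2-/- +EZH2 relative to EZH2+/+. The inhibitors called higher were 3 to 4, 4 to 5 and 1 in EZH2-/- relative to EZH2-/- +EZH2, EZH2-/- relative to EZH2+/+, and EZH2-/- +EZH2 relative to EZH2+/+. Those called lower were 0 to 1 in EZH2-/- (0 without EZH2+/+ library 2), 0 to 1 in EZH2-/+ (CDKN1B without EZH2-/+ library 3) and 1 to 3 in EZH2-/- +EZH2 (3 without EZH2-/+ library 3, with CDKN1C), each relative to EZH2+/+.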
